A study of Mus musculus with 12 samples.

Results

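The Toll-like receptors and Cd14 are 10 genes, taken by symbol from a table of read counts for 54232 mouse genes. They comprised 4 receptors of the cell surface (Tlr1, Tlr2, Tlr4 and Tlr6), 5 receptors of endosomes (Tlr3, Tlr7, Tlr8, Tlr9 and Tlr13) and the co-receptor gene Cd14. All 10 had at least 10 counts in at least 2 libraries and were among the 16281 genes tested. The cells were macrophages grown from bone marrow (BMDMs) of wild-type C57BL/6 mice, aged 6 to 8 weeks by the methods, in RPMI with serum and M-CSF. On day 5 of culture some received tumor-conditioned medium (TCM) and some did not, and R788 (fostamatinib), an inhibitor of the tyrosine kinase Syk, was present at 500 nM or absent for the 24 h before RNA isolation.

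The 6 groups had 2 libraries each, which the labels number SJ1 to SJ12, although the methods describe RNA sequencing in triplicate. NS (SJ1 and SJ2) had neither TCM nor R788. NB9464 TCM (SJ3 and SJ4) had medium from a mouse neuroblastoma line with amplified MYCN, and NBT3L TCM (SJ5 and SJ6) had medium from a mouse neuroblastoma line without the amplification. R788 (SJ7 and SJ8), NB9464 TCM + R788 (SJ9 and SJ10) and NBT3L TCM + R788 (SJ11 and SJ12) were the same media with the inhibitor. Each TCM came from a single line. By the methods, NB9464 TCM was collected in DMEM without serum, whereas neither the medium of the cells without TCM during the last 24 h, nor the making of NBT3L TCM, nor what R788 was dissolved in was described. Differences between TCM and NS therefore cannot be told apart from differences in base medium and serum. Likewise, differences with R788 cannot be told apart from those of its solvent, which the labels of the groups without R788 do not mention. The labels do not say whether libraries of a group came from separate mice, so the p-values measure the spread between these libraries, which may be technical.

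Toll-like receptors are membrane proteins that recognize conserved microbial molecules through leucine-rich repeats outside the cytosol and signal through a cytosolic TIR domain. TLR2 pairs with TLR1 or TLR6 to sense bacterial lipoproteins, and TLR4 with MD-2 senses lipopolysaccharide, which CD14 hands over at the surface. TLR3 (double-stranded RNA), TLR7 and TLR8 (single-stranded RNA), TLR9 (CpG DNA) and TLR13 (bacterial ribosomal RNA, absent from humans) act in endosomes, to which UNC93B1 carries them. The adaptors MyD88 and TRIF pass the signal to NF-kB and interferon regulatory factors. Macrophages are a main site of this system.

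Total counts were between 44977847 and 56449685 per library. SJ8 (R788) had the highest total and the fewest genes with a count, 16149, against 17275 to 18343 in the others. All 8 macrophage markers on the list were present in every group, with sums of normalized counts (counts divided by DESeq2's size factor of the library) between 1611000 and 2677000. Lyz2 held most of those sums (1321000 to 2070000 over the libraries). The rest were Adgre1 (72140 to 394600), Csf1r (90090 to 134300), Cd68 (36610 to 59530), Itgam (15380 to 33160), Ptprc (22610 to 30330), Fcgr1 (2874 to 13970) and Mertk (1543 to 5055). The sum of 8 neutrophil markers was 15460 to 16140 in NS, 19520 to 21500 in R788, 45170 to 46730 in NB9464 TCM, 45450 to 45850 in NBT3L TCM, 30290 to 31430 in NB9464 TCM + R788 and 25960 to 26520 in NBT3L TCM + R788. Mmp8 held most of it (9448 to 37720). S100a8 (670.6 to 8055), S100a9 (1595 to 2596), Ngp (504.3 to 1804) and Camp (177.4 to 365.8) were present in every library. Mpo reached 87.23 at most, Elane 69.5 and Ly6g 3.79. The part of these markers in the results with TCM was not tested. The summed dendritic cell markers reached 167.4 at most, those of T and NK cells 167.7 and those of neuroblastoma 151.1. In these bulk samples, fewer cells of a type and less RNA per cell cannot be told apart.

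Levels of different genes were compared as normalized counts per kilobase of the gene length in the table. In NS, Cd14 was highest at 16580 ± 573 per kilobase (SD, n = 2), 3.93-fold above Tlr13 at 4218 ± 334. Tlr2 (1964 ± 71.9) and Tlr7 (1896 ± 174) followed and did not differ beyond their spread. Below them were Tlr8 (1130 ± 88.8), Tlr4 (804.1 ± 53.5), Tlr1 (473.9 ± 8.56), Tlr6 (223.9 ± 11.5), Tlr3 (187.3 ± 32.6) and Tlr9 (140.5 ± 8.26), where neighbors did not overlap. Cd14 was highest in all 6 groups, and Tlr2 was the second in the 5 groups other than NS. In NBT3L TCM + R788, Tlr2 reached 6702 ± 128 per kilobase, 3.39-fold above Tlr13 at 1979 ± 2.11, and Tlr1 was the fourth at 1861 ± 18.5. Tlr6 and Tlr4 overlapped in NBT3L TCM and in both TCM + R788 groups, and Tlr3 and Tlr9 in NBT3L TCM and in R788.

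The balance between surface and endosomal transcripts was summed per library on the same scale. The 4 surface receptors summed to 3466 ± 21.2 per kilobase in NS, 5633 ± 294 in NB9464 TCM, 7084 ± 171 in NBT3L TCM, 6786 ± 94.8 in R788, 8299 ± 181 in NB9464 TCM + R788 and 9439 ± 106 in NBT3L TCM + R788 (SD, n = 2). The 5 endosomal receptors summed to 7572 ± 639 in NS and 4140 ± 108 in NBT3L TCM + R788, with the other 4 groups at means between 4884 and 6009. The ratio of surface to endosomal sums was thus 0.43 and 0.489 in the NS libraries and 2.26 and 2.3 in those with NBT3L TCM + R788. Tlr2 alone made up 55.5% to 57.9% of the surface sum in NS and 74.6% to 75.5% in R788. Tlr13 made up 55.5% to 55.9% of the endosomal sum in NS and 45.6% to 45.7% in R788. These sums are dominated by the most abundant gene of each class and were not tested.

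**Figure D1:**
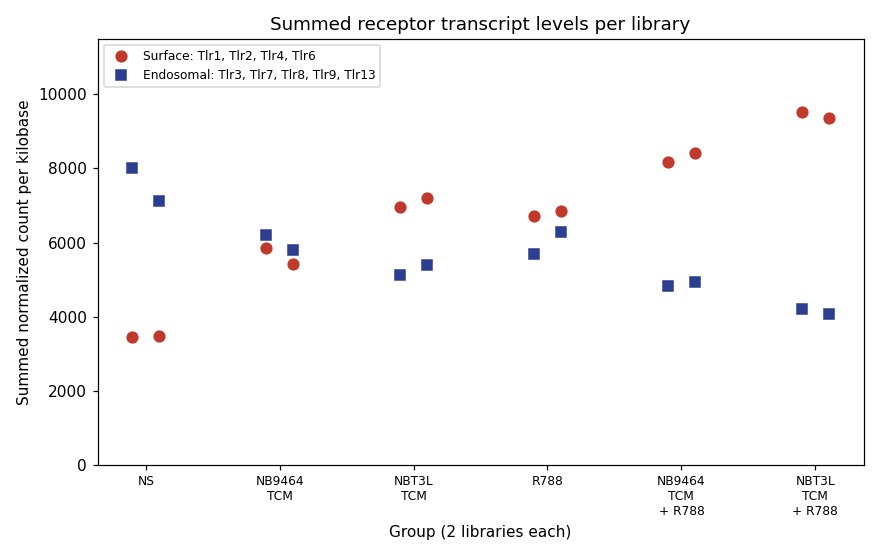
Summed normalized count per kilobase (y axis, linear from 0) of the surface receptors (circles) and endosomal receptors (squares) in each of the 2 libraries of the 6 groups (x axis). The endosomal sum lies above the surface sum in NS and NB9464 TCM and below it in the other 4 groups, with the widest gap in NBT3L TCM + R788.

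The effect of TCM was asked by comparing each TCM with NS. With NB9464 TCM, 8 of the 10 genes passed the test at an adjusted p under 0.05 (DESeq2), 4 higher and 4 lower. Among all genes tested 34.1% were called, 17.2% higher and 16.9% lower. With NBT3L TCM 9 of 10 were called, 4 higher and 5 lower, against 35.3% of all genes, 18% higher and 17.3% lower. The genes called higher were Tlr1, Tlr2, Tlr6 and Cd14 in both comparisons, which share the NS libraries. Tlr4, Tlr3, Tlr8 and Tlr13 were called lower in both, and Tlr9 was called lower with NBT3L TCM. The median log2 fold change of the surface receptors was 0.77 with NB9464 TCM and 1.11 with NBT3L TCM. That of the endosomal receptors was -0.27 and -0.58, beside 0.02 and 0 over all genes.

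**Figure D2:**
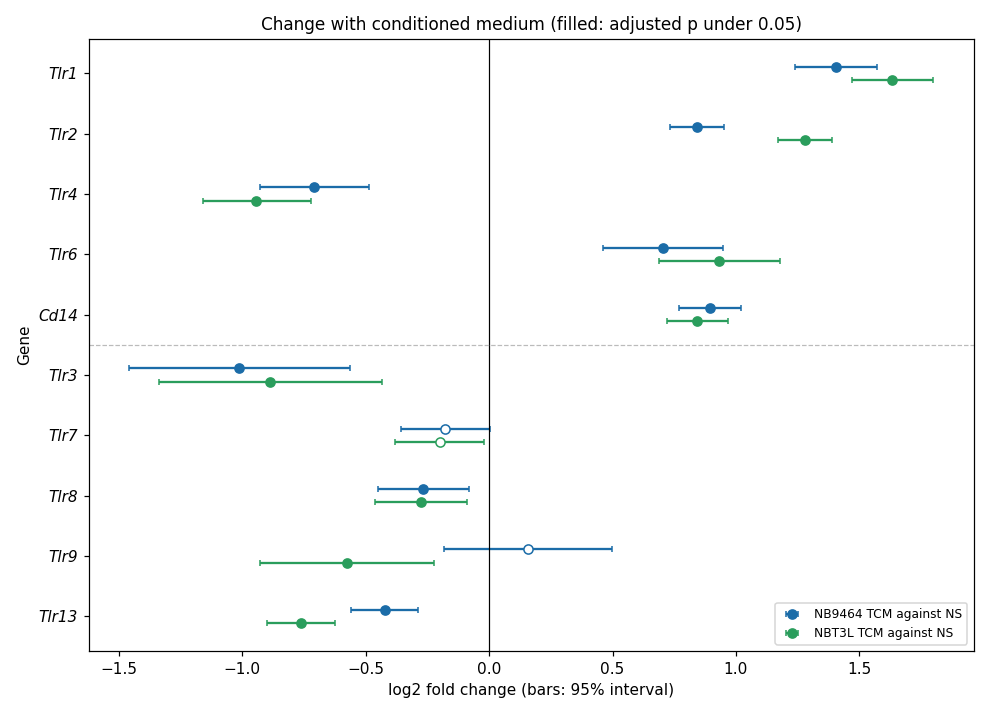
Log2 fold change (x axis) of each gene (y axis) with NB9464 TCM and NBT3L TCM against NS, with 95% intervals and filled points where the adjusted p was under 0.05. Tlr1, Tlr2, Tlr6 and Cd14 lie right of 0 and Tlr4, Tlr3, Tlr8 and Tlr13 left of it with either medium, and Tlr9 lies on opposite sides with an unfilled point for NB9464 TCM.

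NB9464 TCM compared with NBT3L TCM asked whether medium from the MYCN-amplified line differed from that of the other line. It called 4 of the 10 genes, Tlr9 and Tlr13 higher and Tlr1 and Tlr2 lower with NB9464 TCM, against 9.4% of all genes (3.69% higher and 5.72% lower). Cd14 differed by 0.05 on the log2 scale (95% interval -0.074 to 0.173) and Tlr7 by 0.02 (-0.157 to 0.203), and neither passed the test.

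The effect of R788 was tested in each medium. Without TCM it called 5 of 10 genes, 3 higher and 2 lower, against 26.6% of all genes (11.6% higher and 15% lower). In NB9464 TCM it called 5, 3 higher and 2 lower, against 14.5% of all genes (5.79% higher and 8.7% lower). In NBT3L TCM it called 7, 3 higher and 4 lower, against 12.6% (5.33% higher and 7.24% lower). Tlr1 and Tlr2 rose and Tlr13 fell with R788 in all 3 media. Tlr4 and Tlr8 were called in none of the 3 (DESeq2, adjusted p between 0.288 and 0.938, each unadjusted p above 0.05, likewise none with edgeR).

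**Figure D3:**
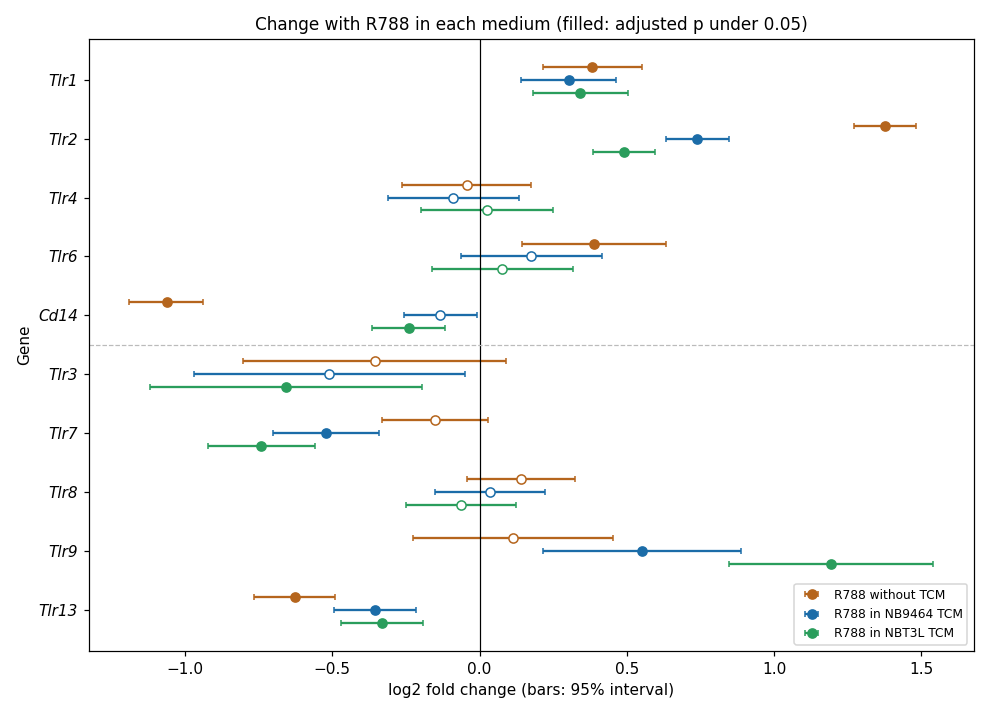
Log2 fold change with R788 (x axis) of each gene (y axis), shown separately for the 3 media, with 95% intervals and filled points where the adjusted p was under 0.05. Tlr2 and Cd14 are farthest from 0 without TCM, whereas Tlr7 and Tlr9 are farthest from 0 in NBT3L TCM.

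Whether the effect of R788 itself depended on the medium was tested as a difference of log2 fold changes. Against its effect without TCM, the effect in NB9464 TCM differed for 4 of 10 genes (Tlr2, Tlr7, Tlr13 and Cd14), beside 12.5% of all genes (6.22% with a higher and 6.26% with a lower value in TCM). The effect in NBT3L TCM differed for 5 of 10 (the same 4 and Tlr9), beside 10.1% (5.17% higher and 4.96% lower). These comparisons share the libraries without TCM. Between the media from the 2 lines the effect of R788 passed the test for 0 of 10 genes, beside 0.706% of all genes (0.283% higher and 0.424% lower). There DESeq2 gave an unadjusted p under 0.05 for 2 genes, Tlr2 and Tlr9, and edgeR called 0 of 10.

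**Figure D4:**
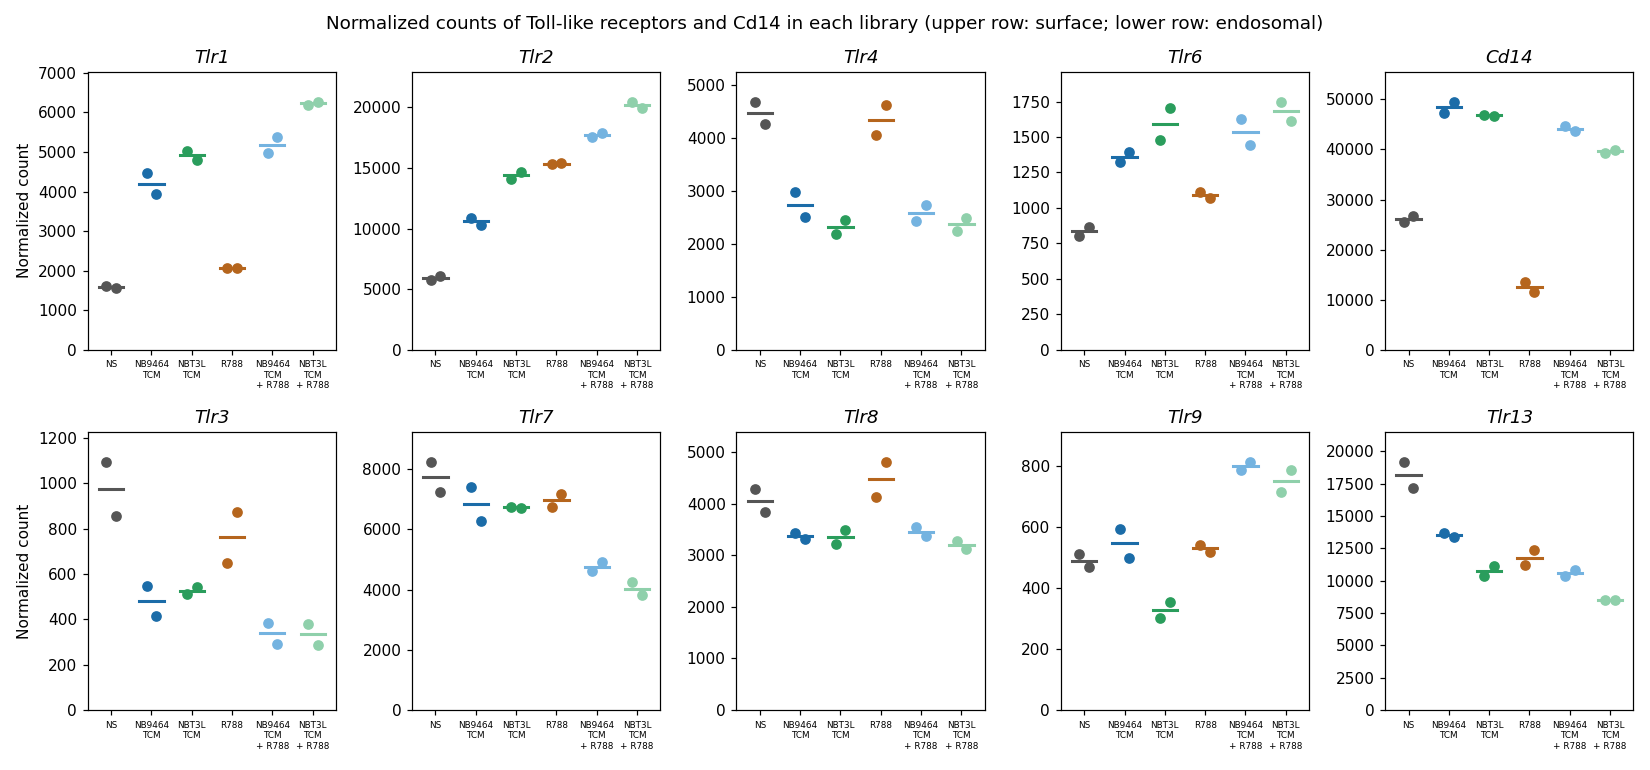
Normalized count (y axis, linear from 0, separate scale per panel) of each of the 10 genes in the 2 libraries (points) of the 6 groups (x axis), with lines at group means. Tlr1 and Cd14 separate the libraries with TCM from those without, Tlr2 is lowest in NS and highest in NBT3L TCM + R788, and Tlr13 has the reverse order at these ends.

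Tlr2 (ENSMUSG00000027995) lies on chromosome 3, 83836272 to 83841767, on the minus strand of GRCm38. Its normalized counts were 5768 and 6074 in NS, 10900 and 10330 in NB9464 TCM, 14080 and 14680 in NBT3L TCM, 15300 and 15420 in R788, 17530 and 17900 in NB9464 TCM + R788, and 20470 and 19930 in NBT3L TCM + R788. No library of a group overlapped another group. The stretch before its start is shown because Tlr2 rose in every comparison of TCM or R788 with its control, and because NF-kB acts below these receptors. RefSeq's sequence (GRCm38.p6, chr3:83841768-83841858, minus strand, 91 bases ending at the annotated start) holds the letters GGGNNTTCC of an NF-kB motif on each strand, overlapping, in capitals:
Tlr2: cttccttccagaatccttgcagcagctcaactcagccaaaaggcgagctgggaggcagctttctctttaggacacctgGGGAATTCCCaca
Of 32851 RefSeq promoter windows of 300 bases, which are longer than this stretch and reach past the start, 5.82% hold that motif on either strand. The windows of Tlr1, Tlr6, Tlr3, Tlr8, Tlr9 and Tlr13 hold no match for it, and Tlr1 rose in the same comparisons as Tlr2. For Tlr4, Tlr7 and Cd14 no window was available, so they were not searched. Whether NF-kB acts on Tlr2 in these cells was not tested. The 4 motifs searched were chosen after the sequences of these genes had been read.

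Tlr2 rose 1.79-fold with NB9464 TCM (log2 fold change 0.84 ± 0.055 SE, DESeq2 adjusted p = 7.36e-51) and 2.43-fold with NBT3L TCM (1.28 ± 0.055, adjusted p = 3.67e-117). It was lower with NB9464 than with NBT3L TCM (-0.44 ± 0.055, adjusted p = 8.59e-14). R788 raised it 2.59-fold without TCM (1.38 ± 0.055, adjusted p = 2.77e-135), 1.67-fold in NB9464 TCM (0.74 ± 0.054, adjusted p = 6.7e-40) and 1.4-fold in NBT3L TCM (0.49 ± 0.054, adjusted p = 1.12e-17). The rise with R788 was thus smaller in TCM, by a difference of -0.64 ± 0.077 in NB9464 TCM (adjusted p = 2.31e-14) and -0.88 ± 0.077 in NBT3L TCM (adjusted p = 7.96e-28). Between the TCMs it differed by 0.25 ± 0.077 (adjusted p = 0.105), which became a call in the fit of only the libraries compared (adjusted p = 0.00589) and without SJ7 or SJ8 (0.0204 and 0.0199).

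Tlr1 (ENSMUSG00000044827, chromosome 5, 64924679 to 64933563) and Tlr6 (ENSMUSG00000051498, chromosome 5, 64952031 to 64960097) are neighbors on the minus strand and encode the partners of TLR2. Of Tlr1's exon sequence, 7.89% of 100-base windows also occur in Tlr6 and in no other gene, and 7.09% of Tlr6's occur in Tlr1. The longest shared stretch is shown because reads within it cannot be assigned to either gene by sequence. It covers 229 coding bases, at chr5:64925537-64925765 in Tlr1 and chr5:64953828-64954056 in Tlr6 (minus strand of GRCm38, GENCODE), without capitals since every base is shared:
Tlr1 and Tlr6: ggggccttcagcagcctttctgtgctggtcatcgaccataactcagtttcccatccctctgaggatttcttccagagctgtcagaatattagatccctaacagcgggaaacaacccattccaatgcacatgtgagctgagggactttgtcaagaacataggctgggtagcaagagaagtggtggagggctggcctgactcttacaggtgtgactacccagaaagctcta
How the authors' counting treated such reads was not stated, so the split between the genes is uncertain to that extent.

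Tlr1 counts were 1606 and 1565 in NS, 4467 and 3932 in NB9464 TCM, 5020 and 4807 in NBT3L TCM, 2062 and 2073 in R788, 4966 and 5389 in NB9464 TCM + R788, and 6184 and 6272 in NBT3L TCM + R788. All 8 libraries with TCM were above all 4 without. Tlr1 rose 2.65-fold with NB9464 TCM (1.405 ± 0.085, DESeq2 adjusted p = 3.08e-60) and 3.1-fold with NBT3L TCM (1.63 ± 0.085, adjusted p = 5.97e-81), the largest rise of the 10 genes in each comparison. The difference between the TCMs was called (-0.23 ± 0.082, DESeq2 adjusted p = 0.0476). This call failed with edgeR (0.123), TMM scaling (0.0648), no independent filtering (0.0636) and the fit of only the compared libraries (0.0782). It was also lost on leaving out any of 9 libraries (SJ1, SJ2, SJ4, SJ5, SJ6 and SJ9 to SJ12), with adjusted p between 0.0639 and 0.469. R788 raised Tlr1 1.3-fold without TCM (0.38 ± 0.086, adjusted p = 6.98e-05), 1.23-fold in NB9464 TCM (0.30 ± 0.082, adjusted p = 0.00247) and 1.27-fold in NBT3L TCM (0.34 ± 0.082, adjusted p = 0.000472). The rise in NB9464 TCM was not called without SJ4 (0.13) or SJ10 (0.126).

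Tlr6 was less abundant, with counts of 803.9 and 864.8 in NS, 1327 and 1391 in NB9464 TCM, 1480 and 1702 in NBT3L TCM, 1111 and 1073 in R788, 1626 and 1443 in NB9464 TCM + R788, and 1749 and 1611 in NBT3L TCM + R788. The NS libraries were lowest, the R788 libraries next, and the 4 groups with TCM partly overlapped one another. Tlr6 rose 1.63-fold with NB9464 TCM (0.70 ± 0.12, adjusted p = 1.19e-07) and 1.91-fold with NBT3L TCM (0.93 ± 0.13, adjusted p = 8e-13). With R788 alone it rose 1.31-fold (0.39 ± 0.13, adjusted p = 0.00883), a call lost without SJ1 (0.116) or SJ7 (0.0505) and in the fit of only the compared libraries (0.0736). In TCM the values with R788 were 0.18 ± 0.12 (NB9464, adjusted p = 0.372) and 0.08 ± 0.12 (NBT3L, adjusted p = 0.779). These values did not differ from that without TCM by the test of the difference (adjusted p = 0.48 and 0.271).

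Tlr4 (ENSMUSG00000039005, chromosome 4, 66827584 to 66930284, plus strand) encodes the lipopolysaccharide receptor and was the surface receptor that fell with TCM. Counts were 4678 and 4257 in NS and 4052 and 4614 in R788, against 2973 and 2494 in NB9464 TCM, 2192 and 2454 in NBT3L TCM, 2421 and 2721 in NB9464 TCM + R788, and 2248 and 2479 in NBT3L TCM + R788. The libraries with TCM did not overlap those without. Tlr4 was 38.8% lower with NB9464 TCM (-0.71 ± 0.11, DESeq2 adjusted p = 2.52e-09) and 48% lower with NBT3L TCM (-0.94 ± 0.11, adjusted p = 9.63e-16). The TCMs differed by 0.23 ± 0.11 (adjusted p = 0.183). R788 gave -0.04 without TCM (95% interval -0.263 to 0.175), -0.09 in NB9464 TCM (-0.311 to 0.134) and 0.02 in NBT3L TCM (-0.199 to 0.248).

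Cd14 (ENSMUSG00000051439, chromosome 18, 36725067 to 36726798, minus strand) encodes the co-receptor that loads lipopolysaccharide onto TLR4 and MD-2. Counts were 25430 and 26710 in NS, 47300 and 49540 in NB9464 TCM, and 46830 and 46730 in NBT3L TCM. They were 13450 and 11540 in R788, 44630 and 43640 in NB9464 TCM + R788, and 39350 and 39860 in NBT3L TCM + R788. The R788 libraries were the lowest and the NS libraries next, below all 8 with TCM. Cd14 rose 1.86-fold with NB9464 TCM (0.89 ± 0.063, DESeq2 adjusted p = 7.88e-44) and 1.79-fold with NBT3L TCM (0.84 ± 0.063, adjusted p = 3.77e-39), in the opposite direction to Tlr4. R788 without TCM lowered it by 52.1% (-1.06 ± 0.064, adjusted p = 3.4e-60). In NBT3L TCM it was 15.3% lower (-0.24 ± 0.063, adjusted p = 0.00181), a call lost without SJ11 (0.0544). In NB9464 TCM the change was -0.13 ± 0.063 (adjusted p = 0.135), called in the fit of only the compared libraries (0.0374) and without SJ7 (0.00341) or SJ8 (0.00455). The effect of R788 without TCM was more negative than in either TCM, with differences of 0.93 ± 0.090 (NB9464 TCM, adjusted p = 1.23e-22) and 0.82 ± 0.090 (NBT3L TCM, adjusted p = 9.22e-18).

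None of the 5 endosomal receptors was called higher with either TCM. Tlr7, Tlr8 and Tlr13 lie on chromosome X, where Tlr8 (ENSMUSG00000040522, 167242696 to 167264329) and Tlr7 (ENSMUSG00000044583, 167304929 to 167330558) are neighbors on the minus strand. No 100-base window of these 3 genes occurred in another gene.

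Tlr13 (ENSMUSG00000033777, chromosome X, 106143204 to 106160493, plus strand) was the most abundant endosomal receptor in every group. Counts were 19170 and 17140 in NS, 13660 and 13390 in NB9464 TCM, 10320 and 11100 in NBT3L TCM, 11170 and 12330 in R788, 10340 and 10820 in NB9464 TCM + R788, and 8525 and 8512 in NBT3L TCM + R788. NS was highest and NBT3L TCM + R788 lowest, with overlap only between NBT3L TCM and NB9464 TCM + R788. The 179 bases before its start are shown since Tlr13 fell in every comparison of TCM or R788 with its control. RefSeq's sequence (GRCm38.p6, chrX:106143025-106143203, plus strand) holds the letters GAGGAA of a PU.1 motif, in capitals:
Tlr13: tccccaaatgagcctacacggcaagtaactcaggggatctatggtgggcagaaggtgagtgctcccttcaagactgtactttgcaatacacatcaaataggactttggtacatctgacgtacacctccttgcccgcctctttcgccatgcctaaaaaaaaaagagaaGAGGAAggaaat
Those letters occur on either strand in 28.3% of the 32851 windows, which at 300 bases are longer than this stretch, so they are common there. They also occur before Tlr1, which rose in those comparisons, and before Tlr8 and Tlr9. The windows of Tlr2, Tlr6 and Tlr3 lack them, and Tlr4, Tlr7 and Cd14 had no window to search. Whether PU.1 acts on Tlr13 in these cells was not tested.

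Tlr13 was 25.5% lower with NB9464 TCM (-0.42 ± 0.070, DESeq2 adjusted p = 1.11e-08) and 41% lower with NBT3L TCM (-0.76 ± 0.070, adjusted p = 4.54e-26), and it was higher with NB9464 than with NBT3L TCM (0.34 ± 0.070, adjusted p = 4.33e-05). R788 lowered it by 35.3% without TCM (-0.63 ± 0.070, adjusted p = 1.12e-17), 21.8% in NB9464 TCM (-0.35 ± 0.070, adjusted p = 9.9e-06) and 20.5% in NBT3L TCM (-0.33 ± 0.071, adjusted p = 6.01e-05). The fall was smaller in TCM by differences of 0.27 ± 0.099 (NB9464, adjusted p = 0.04) and 0.30 ± 0.10 (NBT3L, adjusted p = 0.0257). Neither difference was called by edgeR (0.083 and 0.0592) or in the fit of only the compared libraries (0.0773 and 0.0611). The former was lost without any of 9 libraries (SJ1, SJ3, SJ4, SJ5, SJ7 and SJ9 to SJ12, adjusted p between 0.0522 and 0.232), and the latter without SJ1, SJ5, SJ7, SJ11 or SJ12 (0.0747 to 0.199).

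Tlr7 counts were 8243 and 7237 in NS, 7400 and 6286 in NB9464 TCM, 6749 and 6718 in NBT3L TCM, and 6761 and 7178 in R788. With TCM and R788 together they were 4622 and 4913 (NB9464) and 4255 and 3805 (NBT3L). The 4 libraries with both were the lowest of the 12. Neither TCM alone passed the test (-0.18 ± 0.092, DESeq2 adjusted p = 0.126, and -0.20 ± 0.092, adjusted p = 0.0738), nor did R788 alone (-0.15 ± 0.091, adjusted p = 0.225). With NBT3L TCM it became a call under TMM scaling (0.0393), in the fit of only the compared libraries (0.0303) and on leaving out SJ2, SJ3, SJ4, SJ7 or SJ8 (0.0227 to 0.0482), and with NB9464 TCM without SJ2 (0.041) or SJ3 (0.0131). R788 lowered Tlr7 by 30.3% in NB9464 TCM (-0.52 ± 0.092, adjusted p = 4.07e-07) and 40.1% in NBT3L TCM (-0.74 ± 0.092, adjusted p = 7.47e-14). The fall exceeded that without TCM by -0.59 ± 0.13 in NBT3L TCM (adjusted p = 0.000149). In NB9464 TCM it did so by -0.37 ± 0.13 (adjusted p = 0.0314), which was not called by edgeR (0.0713), in the fit of only the compared libraries (0.057) or without SJ2, SJ3, SJ5, SJ8 or SJ9 (0.0516 to 0.245).

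Its neighbor Tlr8, which encodes another RNA receptor, differed less than Tlr7 with R788 in either TCM, but not with TCM alone. Counts were 4279 and 3829 in NS, 3421 and 3319 in NB9464 TCM, 3212 and 3478 in NBT3L TCM, 4125 and 4806 in R788, 3544 and 3364 in NB9464 TCM + R788, and 3280 and 3127 in NBT3L TCM + R788. The libraries with TCM were all below those without. Tlr8 was 16.9% lower with NB9464 TCM (-0.27 ± 0.094, DESeq2 adjusted p = 0.0162) and 17.5% lower with NBT3L TCM (-0.28 ± 0.095, adjusted p = 0.0116). The calls were lost without SJ1, SJ3 or SJ4 (0.0511 to 0.241) and without SJ1 or SJ5 (0.163 to 0.212), respectively. R788 gave 0.14 ± 0.094 without TCM (adjusted p = 0.288, and 0.04 without SJ7), 0.04 ± 0.095 in NB9464 TCM, with -0.06 ± 0.095 in NBT3L TCM.

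Tlr9 (ENSMUSG00000045322, chromosome 9, 106222598 to 106226883, plus strand), the CpG DNA receptor, had its lowest group mean in NBT3L TCM. Counts were 509 and 468.4 in NS, 593.1 and 497 in NB9464 TCM, 300.8 and 353.8 in NBT3L TCM, 539.9 and 517.4 in R788, 785.8 and 812 in NB9464 TCM + R788, and 712.6 and 785.8 in NBT3L TCM + R788. The libraries with TCM and R788 together were the highest 4. The 250 bases before its start are shown because Tlr9 rose with R788 in TCM while Tlr13 and Tlr7 fell. RefSeq's sequence (GRCm38.p6, chr9:106222348-106222597, plus strand) holds, in capitals, GAGGAA and the letters TGANTCA of an AP-1 motif, the latter found in 7.81% of the windows:
Tlr9: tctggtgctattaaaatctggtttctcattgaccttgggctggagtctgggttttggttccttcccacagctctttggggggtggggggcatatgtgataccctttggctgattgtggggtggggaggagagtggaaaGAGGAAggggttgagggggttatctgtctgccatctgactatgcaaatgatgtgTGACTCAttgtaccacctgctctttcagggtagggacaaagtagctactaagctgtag
The AP-1 letters read as a match on both strands at this single place. No match for the NF-kB letters or for an interferon response element (GAAA, any 2 bases, GAAA, found in 3.44% of the windows) was in this stretch. Whether AP-1 or PU.1 acts on Tlr9 in these cells was not tested.

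Tlr9 did not pass the test with NB9464 TCM (0.16 ± 0.17, DESeq2 adjusted p = 0.559) and was 33% lower with NBT3L TCM (-0.58 ± 0.18, adjusted p = 0.00481), a call lost without SJ1 or SJ5 (0.0788 to 0.111). NB9464 TCM was 1.66-fold above NBT3L TCM (0.73 ± 0.18, adjusted p = 0.000718), a call lost without SJ3 (0.0904) or SJ5 (0.0797). R788 without TCM gave 0.11 ± 0.17 (adjusted p = 0.701). In NB9464 TCM it raised Tlr9 1.47-fold (0.55 ± 0.17, adjusted p = 0.0105), which was not called without SJ4 (0.195), SJ9 (0.0878) or SJ10 (0.125). In NBT3L TCM it raised Tlr9 2.29-fold (1.19 ± 0.18, adjusted p = 8.5e-10), more than without TCM by 1.08 ± 0.25 (adjusted p = 0.000313). The summed level of 6 B cell markers was also lowest in NBT3L TCM (296.5 to 350.3) and highest in NB9464 TCM + R788 (1154 to 1192). It was 757.1 to 846.1 in NBT3L TCM + R788, 688.4 to 695.9 in NS, 675.3 to 717.1 in NB9464 TCM and 516.6 to 656.2 in R788. Ighm and Cd79b held most of that sum, and the defining marker Pax5 was at 0 in all 12 libraries.

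Tlr3 (ENSMUSG00000031639, chromosome 8, 45395665 to 45411080, minus strand), the double-stranded RNA receptor, had the largest SE of the 10 genes in these comparisons. Counts were 1095 and 855.3 in NS, 549.1 and 417.1 in NB9464 TCM, 512.4 and 541 in NBT3L TCM, 649.8 and 873.4 in R788, 385.9 and 292.1 in NB9464 TCM + R788, and 381.7 and 286.4 in NBT3L TCM + R788. All libraries with TCM were below all without. Tlr3 was 50.5% lower with NB9464 TCM (-1.01 ± 0.23, DESeq2 adjusted p = 5.86e-05) and 46% lower with NBT3L TCM (-0.89 ± 0.23, adjusted p = 0.000527). R788 gave -0.36 ± 0.23 without TCM (adjusted p = 0.26) and -0.51 ± 0.24 in NB9464 TCM (adjusted p = 0.124). In NBT3L TCM Tlr3 was 36.6% lower with R788 (-0.66 ± 0.24, adjusted p = 0.0364), a call that edgeR did not make (0.0658) and that was lost without SJ5, SJ6 or SJ12 (0.127 to 0.377). An antisense gene on the other strand, Gm45542, overlaps 7.32% of its exon bases, and reads of the 2 genes cannot be told apart there if counting ignored strand.

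The other genes of the pathway were described from lists of 70 genes, of which 67 were tested. With NB9464 TCM 32 rose and 18 fell, and with NBT3L TCM 34 rose and 16 fell, with medians over the 67 of 0.11 and 0.19. Of all genes tested, 17.2% rose and 16.9% fell with NB9464 TCM and 18% and 17.3% with NBT3L TCM, with medians of 0.02 and 0. All 7 tested response genes rose with each TCM. Il12b, a cytokine subunit gene, had mean counts of 2.818 in NS and 613.3 in NB9464 TCM, and Il6 had 1.896 in NS and 690.7 in NBT3L TCM. Among 12 brakes, 6 rose and 4 fell with NB9464 TCM, and 7 rose and 2 fell with NBT3L TCM. Irak3, which encodes a kinase-like inhibitor of MyD88 signaling, rose 5.27-fold with NB9464 TCM (2.40 ± 0.062) and by 2.43 ± 0.062 on the log2 scale with NBT3L TCM, both with an adjusted p below the smallest number the software writes. Socs1, a brake on cytokine signaling, rose 10.6-fold with NBT3L TCM (3.41 ± 0.17, adjusted p = 6.62e-90) and by 2.17 ± 0.17 with NB9464 TCM (adjusted p = 2.5e-36).

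Receptors and helpers outside the 10 genes moved in both directions with TCM. Tlr5, the flagellin receptor, had a mean of 228.8 counts in NS and fell to 21.32 with NB9464 TCM (-3.43 ± 0.46, DESeq2 adjusted p = 8.97e-13) and to 40.51 in NBT3L TCM (-2.49 ± 0.44, adjusted p = 1.14e-07). Tlr11 and Tlr12 were below the count filter. Of 17 accessory and trafficking genes, 5 rose and 9 fell with NB9464 TCM, and 7 rose and 8 fell with NBT3L TCM, where 34.1% and 35.3% of all genes were called. Ly86, which encodes MD-1, the partner of the TLR4 relative CD180, fell with both (-1.91 and -1.82 on the log2 scale), and Slc15a3, an endosomal transporter of bacterial peptides, rose with both (1.48 and 1.86). Of 6 adaptors 4 rose and 0 fell with each TCM, among them Ticam2, which links TLR4 to TRIF (1.05 ± 0.15 and 1.26 ± 0.15). The kinase gene Ikbke rose 2.97-fold and 2.66-fold. Among 7 transcription factors, Irf7, the factor through which TLR7 and TLR9 induce interferon in plasmacytoid dendritic cells, fell with both (-1.73 and -1.14).

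NB9464 TCM compared with NBT3L TCM left 2 of the 67 pathway genes higher and 19 lower, where 3.69% of all genes were higher and 5.72% lower. The scavenger receptor gene Cd36, which helps TLR2 with TLR6, was 48.6% lower (-0.96 ± 0.048, DESeq2 adjusted p = 2.98e-84), and 8 of 17 accessory and trafficking genes were lower and 0 higher. Ptgs2, a response gene, was 59.2% lower (-1.30 ± 0.19, adjusted p = 1.04e-09), with 5 of 7 response genes lower and 0 higher.

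Over the 67 pathway genes, R788 called 14 higher and 23 lower without TCM, 10 and 15 in NB9464 TCM, and 7 and 18 in NBT3L TCM. Over all genes more were likewise called lower than higher, 15% against 11.6% without TCM, 8.7% against 5.79% in NB9464 TCM and 7.24% against 5.33% in NBT3L TCM. Irf7 fell in all 3 media, with log2 fold changes of -2.63 (no TCM), -2.80 (NB9464 TCM) and -2.63 (NBT3L TCM). The chemokine gene Ccl4 fell likewise, with -2.49, -1.53 and -1.70. Cd180, whose product resembles TLR4, fell with R788 in all 3 media, by 57.8% with no TCM (-1.25 ± 0.069, DESeq2 adjusted p = 2.67e-71), 21.1% in NB9464 TCM (adjusted p = 1.63e-05) and 20.7% in NBT3L TCM (adjusted p = 2.76e-05). Pik3ap1, an adaptor between Toll-like receptors and PI3 kinase, was 46.8% lower with R788 alone (-0.91 ± 0.054, adjusted p = 1.54e-62) and did not pass the test in either TCM (0.14 and -0.01, adjusted p = 0.052 and 0.969). Ticam2 rose in all 3 media (0.52, 0.82 and 0.86). Unc93b1, whose product escorts the endosomal receptors, rose with R788 in all 3 media (0.33 ± 0.047 with no TCM, 0.27 ± 0.047 with NB9464 and 0.34 ± 0.047 with NBT3L, with adjusted p of 7.09e-11, 2.38e-07 and 1.28e-11). Ctsl, a cathepsin that can cleave those receptors, fell in all 3 (-0.81, -0.42 and -0.57 in that order). Spi1, which encodes PU.1, rose in the TCMs (0.26 and 0.25) and gave 0.06 without TCM (adjusted p = 0.538).

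The genes whose pattern over the 12 libraries was most like each member were found by Pearson correlation of log2(normalized count + 1) among the 10709 genes whose mean was 100 normalized counts or more. The libraries share their groups and the contrast between TCM and no TCM, so these values are descriptions. Tlr1 was most like Gng12 (r = 0.996), Fam114a1 (0.995) and Syk (0.994), Tlr2 like Tsku (0.976), Acta2 (0.974) and Peli3 (0.972), and Tlr6 like Akr1c13 (0.982) and Cdc42ep2 (0.978). Tlr4 was most like Wdr26 (0.985), Osbpl9 (0.982) and Uevld (0.979), and Cd14 like Ccl5 (0.993), Hsd17b12 (0.99) and Sec23b (0.989). For the endosomal receptors these were Kbtbd8, Adss and Tfdp1 with Tlr13 (0.948 to 0.95), Zup1, Atp8b4 and Hus1 with Tlr7 (0.961 to 0.969), and Ncoa1, Eps15 and 1700020I14Rik with Tlr8 (0.96 to 0.97). Tlr9 was most like Shc1 (0.93), and Tlr3 had Etnk1, Dusp3 and Ticrr (0.965 to 0.967). Among the members themselves, Tlr1 and Tlr6 had r = 0.954, Tlr1 and Tlr4 -0.943, and Tlr2 and Tlr13 -0.957.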

How the data were processed

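The values used were read counts as deposited, whole numbers for each Ensembl gene ID beside a gene length, from 12 libraries of poly(A) RNA. The authors used STAR for mapping (mm10) and Salmon for quantification, with versions 2.6.1d and 1.4.0 in the submitters' processing notes. The counts were deposited under a name that includes Salmon. Whether Salmon wrote these whole numbers directly, the strand setting and the treatment of multimapped reads are not given in the sources used here. Symbols and positions came from GENCODE M21 (GRCm38, 1-based), which held 54165 of 54232 IDs.

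Genes that reached 10 counts in 2 or more libraries were tested with DESeq2 1.42.0 in R 4.3.3, the study's tool, in a single fit of 6 group means over 12 libraries. Wald tests were two-sided and fold changes unshrunken. P-values were adjusted (Benjamini-Hochberg) per comparison over those of the 16281 genes that DESeq2's independent filtering by mean count kept. Errors after ± are SE for log2 fold changes and SD for levels. In simulated data for NB9464 TCM against NS, 200 of 15004 genes were changed by 1 on the log2 scale. DESeq2 recovered 99.5% of them with 9.13% of calls false, and edgeR 100% with 5.66% false. The simulation set the same spread for every gene, so these shares are not the error rates of the real data. Alternatives included edgeR 4.0.16, other scalings and filters, and leaving out each library. Pathway genes were named by the largest called rise and fall per list and comparison, where the mean was 100 or more and the groups did not overlap, with their values in other comparisons added. The members, lists and motifs were chosen with earlier results of these data known. No replicate numbers were shared between groups. Some genes that met the naming rules are not reported here.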

Additional observations from a re-analysis of the deposited data

Results flagged for a closer look

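The effect of R788 differed between media, by the test of the difference itself, for 4 of the 10 genes in NB9464 TCM and 5 in NBT3L TCM, beside 12.5% and 10.1% of all genes (DESeq2, differences of log2 fold changes, TCM minus no TCM, ± SE, n = 2 libraries per group). For Tlr2 the difference was -0.64 ± 0.077 in NB9464 TCM (adjusted p = 2.31e-14) and -0.88 ± 0.077 in NBT3L TCM (adjusted p = 7.96e-28). For Cd14 it was 0.93 ± 0.090 (adjusted p = 1.23e-22) and 0.82 ± 0.090 (adjusted p = 9.22e-18). For Tlr7 it was -0.37 ± 0.13 (adjusted p = 0.0314) and -0.59 ± 0.13 (adjusted p = 0.000149). For Tlr13 it was 0.27 ± 0.099 (adjusted p = 0.04) and 0.30 ± 0.10 (adjusted p = 0.0257). Neither Tlr13 difference, nor that of Tlr7 in NB9464 TCM, passed with edgeR (adjusted p = 0.083, 0.0592 and 0.0713) or in the fit of only the compared libraries (0.0773, 0.0611 and 0.057). For Tlr9 it was 1.08 ± 0.25 in NBT3L TCM (adjusted p = 0.000313) and 0.44 ± 0.25 in NB9464 TCM, which did not pass the test (adjusted p = 0.238). Each of these differences uses the R788 libraries SJ7 and SJ8, of which SJ8 had the fewest detected genes.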

How the results depend on the processing

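No value that passed the test changed sign under any alternative run. Among the other values, leaving out a library reached both signs for Tlr3 (-0.34 to 0.058), Tlr7 (-0.10 to 0.13) and Tlr8 (-0.048 to 0.069) between the TCMs, Tlr4 with R788 without TCM (-0.14 to 0.048), Tlr4 (-0.21 to 0.043) and Tlr8 (-0.0029 to 0.071) with R788 in NB9464 TCM, and Tlr4 (-0.054 to 0.11) and Tlr6 (-0.020 to 0.18) with R788 in NBT3L TCM. Of the 10 genes, between 7 and 9 were called with NB9464 TCM on leaving out a library, 7 to 10 with NBT3L TCM, 2 to 4 between the TCMs, 4 to 5, 3 to 6 and 6 to 7 with R788 (no TCM, NB9464 TCM and NBT3L TCM in turn), 2 to 4 and 4 to 5 for the difference of R788 effects in NB9464 TCM and NBT3L TCM against no TCM, and 0 to 1 between the TCMs. The lowest of these numbers arose between the TCMs without SJ5, with R788 in NB9464 TCM without SJ4 or SJ10, and for the difference in NB9464 TCM without SJ3, SJ5 or SJ9. The last also had 2 calls with edgeR and in the fit of only the compared libraries, and the difference between the TCMs had 1 in that fit and without SJ7 or SJ8. Genes called between the TCMs numbered 1531, with 1033 to 1632 under other settings and 795 to 2007 without a library. For the difference of R788 effects between the TCMs the number was 115, with 21 to 272 and 46 to 234. Leaving out a library also moved the number of genes called from 2359 to between 1432 and 2885 for R788 in NB9464 TCM, from 2046 to between 1173 and 2566 in NBT3L TCM, and for their differences from no TCM from 2032 to between 1344 and 2974 and from 1649 to between 1038 and 2583. With TMM scaling, levels per kilobase moved by more than 1 SD for Tlr1 (625.7) and Tlr2 (5159) in R788 and Tlr13 (1991) in NBT3L TCM + R788. The causes were not tested. No paired analysis was possible because groups share no replicate numbers. Even numbers made up most low counts, so counts were also divided by 2, which removed the call of Tlr1 between the TCMs (adjusted p = 0.0574).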
